A study of Mus musculus with 9 samples.

Results

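The nuclear genes for subunits of the mitochondrial respiratory chain and of ATP synthase were followed across 3 groups of smooth muscle cells sorted from mouse lung. The members were the protein_coding rows of the deposited table whose symbol begins with Ndufa, Ndufb, Ndufc, Ndufs or Ndufv and a digit, with Cox and a digit of the subunit series, with Uqcr or with Atp5, together with Sdha, Sdhb, Sdhc and Sdhd. The rule matched 84 rows and left out 4 tissue isoforms, Cox6a2, Cox7a1, Cox4i2 and Ndufa4l2. That gave 80 of the 21049 genes in the table, of which 15963 are protein coding. Complexes were assigned by symbol, which put Ndufa4 in complex I and Cox7a2l in complex IV. Complex I held 37 members, complex II 4, complex III 8, complex IV 14 and complex V, the ATP synthase, 17. All but Cox5b-ps, which was listed as protein coding with values of 1 to 8, passed the filter on low values, so 79 members were tested.

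RNA was sequenced from 3 libraries of each group, to compare the smooth muscle types of the lung directly. PASMCs were arterial smooth muscle cells of the lung, taken from the genotype Cspg4/Acta2-CreER/R26-GFP, called ASMC-effector mice. SmMCll were pulmonary smooth muscle cells of genotype tg-Acta2-GFP, sorted as the total population with the venous cells included. BSMCs were bronchial smooth muscle cells of genotype Chrm2/Acta2-CreER/R26-GFP, called NVSMC-effector mice. Tamoxifen, dissolved in corn oil at 20 mg/mL, was listed for all 9 libraries, with 3 days of injection into the peritoneum at 0.75 mg for each 10 g of mouse. Line and sort differed with every group, so cell type, line and sort cannot be told apart. Nothing in the labels tells if different animals gave the 3 libraries of a group, so the p-values reflect variation among libraries that may be technical.

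The respiratory chain passes electrons from NADH and succinate to oxygen. Complexes I, III and IV move protons across the inner mitochondrial membrane, complex II links the chain to the citric acid cycle, and ATP synthase uses the proton gradient to make ATP. Most subunits are encoded in the nucleus and a few of complexes I, III, IV and V in mitochondrial DNA. The table held 0 mitochondrially encoded genes, so only the nuclear side was seen here. Many of the nuclear genes are known targets of NRF1, of ETS factors such as GABP, of YY1 and of the estrogen-related receptors.

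Promoter sequences from RefSeq (build GRCm38.p6, 250 bases before to 50 bases after the gene start) were found by symbol for 67 of the 80 members. The letters GCGCANGCG, a form of the NRF1 motif, were searched on both strands, as were all motifs here, and were present in 20 of the 67 (29.9%). The same letters stood in 13.8% of the promoters of 11514 other tested genes and in 7.03% of all 27025 genes of the promoter table. The YY1 letters AAGATGGCG stood in 7 of the 67 (10.4%), against 3.12% of other tested genes. The ETS letters CCGGAAGT stood in 5 of the 67 (7.46%), against 8.25% of other tested genes. The ERR letters TCAAGGTCA stood in 2 of the 67 (2.99%), against 0.295% of other tested genes. A match is a string of letters and not a measured binding site. For each complex 1 member with the NRF1 letters was chosen after the matches were seen, and its whole window is shown 5′ to 3′ on the gene's strand, with the NRF1 letters in capitals. Ndufs6 is a supernumerary subunit of complex I, at chr13:73328433-73328732 on the minus strand. Sdha is the flavoprotein of succinate dehydrogenase, at chr13:74350191-74350490 on the minus strand. Uqcrc1 is a core protein of complex III, at chr9:108936398-108936697 on the plus strand. Cox6a1 is a subunit of cytochrome c oxidase, at chr5:115348909-115349208 on the minus strand. Atp5g3 is a gene for subunit c of the membrane ring of ATP synthase, at chr2:73911277-73911576 on the minus strand.
Ndufs6: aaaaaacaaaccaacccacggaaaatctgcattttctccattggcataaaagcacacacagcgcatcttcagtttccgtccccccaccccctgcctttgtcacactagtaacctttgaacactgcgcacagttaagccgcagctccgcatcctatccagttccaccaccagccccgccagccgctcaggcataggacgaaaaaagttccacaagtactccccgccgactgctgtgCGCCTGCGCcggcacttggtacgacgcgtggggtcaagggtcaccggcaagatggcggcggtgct
Sdha: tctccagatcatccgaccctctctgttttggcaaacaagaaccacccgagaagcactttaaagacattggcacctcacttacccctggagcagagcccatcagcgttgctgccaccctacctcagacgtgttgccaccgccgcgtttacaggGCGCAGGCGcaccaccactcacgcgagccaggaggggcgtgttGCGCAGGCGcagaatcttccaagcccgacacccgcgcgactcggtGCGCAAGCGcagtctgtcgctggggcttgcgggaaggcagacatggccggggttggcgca
Uqcrc1: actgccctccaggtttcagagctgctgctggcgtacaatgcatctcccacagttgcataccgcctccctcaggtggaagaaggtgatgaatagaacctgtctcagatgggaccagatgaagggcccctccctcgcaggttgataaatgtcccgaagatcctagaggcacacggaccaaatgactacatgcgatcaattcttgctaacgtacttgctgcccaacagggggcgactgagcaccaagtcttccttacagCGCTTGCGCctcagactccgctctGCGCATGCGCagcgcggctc
Cox6a1: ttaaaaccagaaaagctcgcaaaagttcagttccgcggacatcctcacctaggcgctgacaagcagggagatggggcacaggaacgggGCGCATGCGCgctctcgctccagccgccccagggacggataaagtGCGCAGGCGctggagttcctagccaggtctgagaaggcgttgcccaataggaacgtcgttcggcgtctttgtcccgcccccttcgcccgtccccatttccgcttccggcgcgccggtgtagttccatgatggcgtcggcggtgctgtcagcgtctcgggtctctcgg
Atp5g3: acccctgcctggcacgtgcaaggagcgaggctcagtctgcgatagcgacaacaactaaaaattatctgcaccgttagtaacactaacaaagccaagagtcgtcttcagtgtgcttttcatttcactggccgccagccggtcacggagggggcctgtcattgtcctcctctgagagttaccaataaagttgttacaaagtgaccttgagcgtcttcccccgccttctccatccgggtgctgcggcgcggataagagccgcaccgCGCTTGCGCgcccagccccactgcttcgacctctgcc

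The Sdha window held 3 matches, which began -98, -55 and -10 bases from the gene start. Uqcrc1 held 3 matches as well, which began 6, 30 and 31 bases after its start, the last 2 overlapping. Cox6a1 held matches that began -162 and -161 bases from its start, which overlap, and -117 bases from it. The single match began -15 bases from the start in Ndufs6 and 13 bases after it in Atp5g3. The Ndufs6 window held the YY1 letters too, and the Atp5g3 window the ERR letters. Members with and without the NRF1 letters had similar medians in the comparisons described below. In SmMCll over BSMCs the median log2 fold change was -0.47 over the 20 tested members with the NRF1 letters and -0.50 over the 47 without them. In PASMCs over BSMCs it was -0.45 over the 20 and -0.44 over the 47.

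The deposited values behaved as read counts multiplied by a factor for each library and rounded to whole numbers. The factor was read from the spacing of the whole numbers, and a value divided by its factor is called implied reads below. Implied depth is their sum over the genes of the table and not the number of reads sequenced. It was 8.92 to 10.02 M reads in PASMCs, 8.93 to 9.90 M in SmMCll and 6.39 to 9.33 M in BSMCs. Within BSMCs, replicate 2 was the deepest at 9.33 M, replicate 1 had 7.14 M and replicate 3 had the fewest at 6.39 M. The 8 smooth muscle markers of the list were all in the table, and summed to values of 32749 to 36660 in PASMCs, 27495 to 32750 in SmMCll and 34360 to 41701 in BSMCs. The 8 leukocyte markers summed to 2659 to 2751 in PASMCs, 3455 to 4233 in SmMCll and 9218 to 13265 in BSMCs. Ptprc, the leukocyte common antigen, was at 0, 0 and 0 in PASMCs, 0, 4 and 3 in SmMCll and 760, 569 and 391 in BSMCs.

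The members were abundant in every group. Per kb of main transcript, the median over the tested members of a complex was 780 for complex I, 1165 for complex II, 953 for complex III, 609 for complex IV and 982 for complex V, as the mean deposited value over the 9 libraries. Atp5b, the catalytic beta subunit of ATP synthase (ENSMUSG00000025393, mm39 chromosome 10, 127919142 to 127926260), stood highest at 1700.2 per kb. Its values were 3158, 2870 and 3153 in PASMCs, 3016, 2898 and 3345 in SmMCll and 3729, 2998 and 4152 in BSMCs. The 3 groups overlapped. Cox6a1 and Atp5g3 followed at 1553 and 1551 per kb. Cox6a1 was at 845, 751 and 886 in PASMCs, 788, 760 and 856 in SmMCll and 1066, 822 and 1208 in BSMCs, again with overlap. The second member of complex IV was Cox4i1, the regulatory subunit IV, at 1416 per kb. In complex I the leading pair was Ndufa7, a supernumerary subunit, at 1436 per kb and Ndufs7, which carries an iron-sulfur cluster of the electron path, at 1394 per kb. Ndufa7 had values of 686, 597 and 740 in PASMCs, 675, 586 and 641 in SmMCll and 1030, 753 and 1117 in BSMCs, with every BSMCs library above the others. Ndufs7 had 944, 882 and 1058 in PASMCs, 925, 811 and 897 in SmMCll and 1371, 1083 and 1536 in BSMCs, again with BSMCs apart. In complex II it was Sdha at 1186 and Sdhb, the iron-sulfur subunit, at 1184 per kb. Sdhb had 1214, 1163 and 1283 in PASMCs, 1331, 1169 and 1253 in SmMCll and 1637, 1313 and 1806 in BSMCs, where the PASMCs libraries lay below BSMCs and the SmMCll libraries overlapped both. In complex III it was Uqcr10 at 1404 and Uqcrh, the hinge protein, at 1205 per kb. Uqcrh had 616, 535 and 684 in PASMCs, 511, 563 and 551 in SmMCll and 882, 623 and 965 in BSMCs, where the SmMCll libraries lay below BSMCs and the PASMCs libraries overlapped both. Uqcr10 had 572, 475 and 567 in PASMCs, 523, 528 and 524 in SmMCll and 807, 596 and 890 in BSMCs, and no BSMCs library overlapped the others. Ndufa7 and Ndufs7 lay closer together than the SD between the libraries of any group, and so did Sdha and Sdhb, so the order within these pairs is not resolved.

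**Figure D1:**
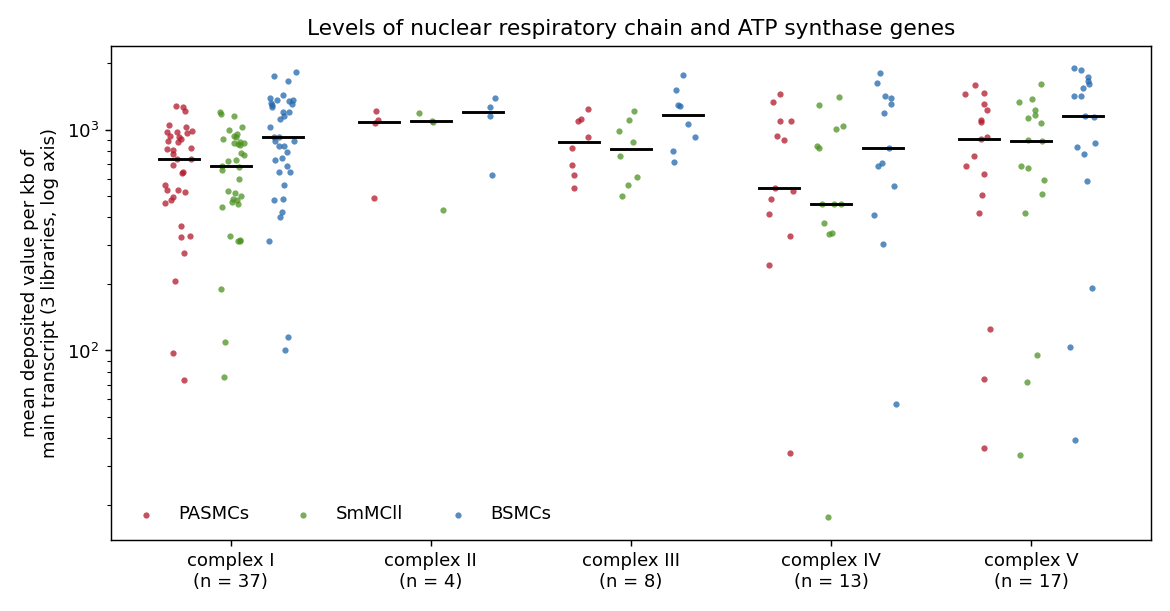
Mean deposited value per kb of main transcript (log axis) of each of the 79 tested members, by complex, for PASMCs, SmMCll and BSMCs (3 libraries each); bars are medians over the members. Complexes I to V span similar levels, and the BSMCs median is the highest of the 3 in each complex. Ndufb2 and Atp5g1 sit low with main transcripts of 2413 and 4660 bases.

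Some members had far lower values. Atp5l, subunit g of ATP synthase, had values of 17, 19 and 23 in PASMCs, 20, 19 and 16 in SmMCll and 30, 12 and 22 in BSMCs. Ndufb4, a membrane-arm subunit of complex I, had 66, 53 and 94 in PASMCs, 85, 73 and 64 in SmMCll and 115, 77 and 100 in BSMCs. Atp5g2, one more subunit c gene, had 73, 60 and 87 in PASMCs, 63, 64 and 40 in SmMCll and 121, 84 and 132 in BSMCs. Families with near-identical copies in the genome can lose or share reads in counting, so the levels of these genes are uncertain. Cox8b, a heart and muscle isoform of complex IV, was at 8, 8 and 21 in PASMCs, 6, 9 and 4 in SmMCll and 17, 10 and 35 in BSMCs.

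The arterial and bronchial cells were compared first. Most members had lower means in PASMCs than in BSMCs, and few passed the test. The median log2 fold change was -0.46 in complex I, -0.27 in complex II, -0.41 in complex III, -0.40 in complex IV and -0.39 in complex V. Of 79 members, 12 were called lower and 0 higher in PASMCs (limma, Benjamini-Hochberg adjusted p under 0.05 over 15647 genes), where 8.88% of all genes tested were called lower, 13.2% higher and 22.1% in either direction. The members' median log2 fold change was -0.44, against 0.05 over all genes tested, and 77 of 79 lay below 0. In complex I 9 of 37 members were called, in complexes III, IV and V 1 each, and in complex II 0 of 4. At an unadjusted p under 0.05 there were 56 members, and all 56 were lower, where 39.4% of all genes tested passed in either direction and 17.6% were lower. The libraries of the groups did not overlap for 30 members, each lower in PASMCs, against 17.6% of all genes tested.

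The called members of complex I were Ndufa3, Ndufa6, Ndufa8, Ndufa12, Ndufb7, Ndufc1, Ndufs6, Ndufs7 and Ndufs8. Ndufs7 and Ndufs8 are core subunits with iron-sulfur clusters, and the other 7 are supernumerary. Ndufs8 (ENSMUSG00000059734, mm39 chromosome 19, 3958863 to 3962774) had values of 807, 759 and 875 in PASMCs, against 1230, 981 and 1321 in BSMCs. Every PASMCs library lay below every BSMCs library, with a log2 fold change of -0.52 ± 0.14 (SE) and an adjusted p of 0.0246 in limma. Ndufa12, which sits on the matrix arm, had 355, 333 and 401 in PASMCs, against 595, 455 and 550 in BSMCs. The groups did not overlap, and the log2 fold change was -0.55 ± 0.17 (adjusted p = 0.0369, limma). Ndufs6 had 447, 418 and 524 in PASMCs, against 725, 543 and 770 in BSMCs, without overlap (-0.54 ± 0.17, adjusted p = 0.0426 in limma). Ndufa6, an LYR-motif subunit that binds the acyl carrier protein, was called with an overlap of its libraries. It had 483, 465 and 617 in PASMCs, against 821, 605 and 893 in BSMCs.

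The called member of complex III was Uqcrq, a small membrane subunit. It had 534, 455 and 584 in PASMCs, against 822, 597 and 881 in BSMCs, and every PASMCs library was the lower (-0.53 ± 0.17, adjusted p = 0.0477 in limma). Cox5a, a structural subunit of complex IV (ENSMUSG00000000088, mm39 chromosome 9, 57428557 to 57439709), had 365, 304 and 378 in PASMCs, against 589, 409 and 603 in BSMCs. Its libraries were apart as well, with a log2 fold change of -0.60 ± 0.19 (adjusted p = 0.044, limma). Atp5mpl, a small proteolipid of ATP synthase, had 330, 280 and 401 in PASMCs, against 587, 410 and 556 in BSMCs. It had the largest called fold change of this comparison, -0.62 ± 0.20 (adjusted p = 0.0433, limma). None of these calls held throughout: each of Uqcrq, Cox5a, Atp5mpl and Ndufs6 kept its call in 9 of 21 alternatives, Ndufa6 in 11, Ndufa12 in 13 and Ndufs8 in 14. Over the 12 called members that number ran from 9 to 14. The lowest fold change of all, -0.67 ± 0.61 in the thinly covered Cox8b, was not called.

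Ndufs1 and Sdha were the members above 0. Ndufs1, the largest core subunit of complex I (ENSMUSG00000025968, mm39 chromosome 1, 63182755 to 63215992), had 1386, 1496 and 1293 in PASMCs, 1239, 1267 and 1317 in SmMCll and 1161, 1381 and 783 in BSMCs. The PASMCs and BSMCs libraries overlapped, and the log2 fold change of 0.36 ± 0.18 missed the threshold (adjusted p = 0.154, limma). Without BSMCs replicate 2 it was called higher in PASMCs (adjusted p = 0.0174), and its adjusted p ran from 0.0174 to 0.988 over the 21 alternatives. Sdha had 3593, 3560 and 3455 in PASMCs, 3500, 3189 and 3633 in SmMCll and 3035, 3553 and 3441 in BSMCs. The groups overlapped, with log2 fold changes of 0.08 ± 0.10 in PASMCs over BSMCs and 0.04 ± 0.10 in SmMCll over BSMCs. The other subunits of complex II lay below 0 in PASMCs over BSMCs, Sdhb at -0.37, Sdhc at -0.35 and Sdhd at -0.19, and none of the 3 was called.

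No member was called between the total population and the arterial cells. In SmMCll over PASMCs limma called 0 of 79 members in either direction, where 6.83% of all genes tested were called lower, 9.39% higher and 16.2% in either direction. At an unadjusted p under 0.05 there was 1 member, Ndufv3, named after its values were seen, where 27.9% of all genes tested passed. Of the alternatives, the fit with array weights called 1 member lower. The median log2 fold change was -0.07, against 0.03 over all genes. The range over members ran from -0.78 ± 0.61 in Cox8b to 0.48 ± 0.37 in Cox6b2, a testis isoform of complex IV at 224, 204 and 134 in SmMCll, against 110, 109 and 187 in PASMCs. Its libraries overlapped. In 5 members every SmMCll library lay below every PASMCs library, against 18.0% of all genes tested. Of these, Ndufb3 had the largest fold change, -0.36 ± 0.17 (adjusted p = 0.19, limma). A p above the threshold does not show that the levels are equal.

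The total population set against the bronchial cells gave the most calls. In SmMCll over BSMCs 53 of 79 members were called lower and 0 higher, where 18.2% of all genes tested were called lower, 23.7% higher and 41.9% in either direction. The median log2 fold change was -0.48, against 0.05 over all genes, and 76 of 79 members lay below 0. In complex I 30 of 37 members were called, in complex II 1 of 4, in complex III 7 of 8, in complex IV 6 of 13 and in complex V 9 of 17. In 62 members every SmMCll library lay below every BSMCs library, against 23.9% of all genes tested. The 12 members called in PASMCs over BSMCs were called here too, but both comparisons use the same 3 BSMCs libraries.

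Ndufb3, a supernumerary subunit of the membrane arm of complex I (ENSMUSG00000026032, mm39 chromosome 1, 58625543 to 58635123), had 360, 423 and 363 in SmMCll, 493, 439 and 542 in PASMCs and 769, 567 and 778 in BSMCs. The 3 groups stood apart from each other in that order. The log2 fold change in SmMCll over BSMCs was -0.87 ± 0.17 (adjusted p = 0.00194, limma), and the gene was called in all 21 alternatives. Ndufb1, a supernumerary subunit of the membrane arm too, had 323, 285 and 248 in SmMCll, against 521, 373 and 559 in BSMCs. Its libraries did not overlap (-0.75 ± 0.21, adjusted p = 0.0144 in limma), and 18 of 21 alternatives kept the call. Members of complex I without a call included Ndufa9, Ndufb2, Ndufb4 and Ndufs1.

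In complex II the called member was Sdhc, a membrane anchor that holds the heme. It had 1449, 1255 and 1392 in SmMCll, against 2060, 1633 and 2260 in BSMCs, and the libraries were apart (-0.53 ± 0.14, adjusted p = 0.00944 in limma). In complex III all members but Uqcrc1 were called. Uqcrfs1, the Rieske iron-sulfur protein, had 915, 788 and 800 in SmMCll, against 1306, 1090 and 1408 in BSMCs, without overlap (-0.60 ± 0.14, adjusted p = 0.00668 in limma). Uqcrq had 524, 470 and 459 in SmMCll, with a log2 fold change of -0.64 ± 0.17 over the BSMCs values given above. Sdhc, Uqcrfs1 and Uqcrq each kept the call in 19 of 21 alternatives.

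In complex IV Cox5a had 335, 283 and 270 in SmMCll and a log2 fold change of -0.83 ± 0.19 over BSMCs (adjusted p = 0.00511, limma). Cox6c, a small membrane subunit, had 406, 450 and 416 in SmMCll, against 681, 495 and 791 in BSMCs, and the groups did not overlap (-0.60 ± 0.18, adjusted p = 0.0212 in limma). Cox8b was at the bottom of all members with -1.45 ± 0.61 and was not called (adjusted p = 0.074, limma), while Cox6b2 was at the top with 0.25 ± 0.37. In complex V Atp5g2 showed the largest called change of any member, -1.01 ± 0.30 (adjusted p = 0.0202, limma), on the low values given above, and 16 of 21 alternatives kept the call. Atp5k, subunit e of ATP synthase, had 279, 262 and 218 in SmMCll, against 472, 326 and 473 in BSMCs, without overlap (-0.73 ± 0.21, adjusted p = 0.0172 in limma). The calls of Cox5a, Cox6c and Atp5k were kept in 20, 15 and 17 of 21 alternatives. Atp5a1 and Atp5b, the alpha and beta subunits of the catalytic head, were not called, at -0.27 ± 0.11 and -0.22 ± 0.13.

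**Figure D2:**
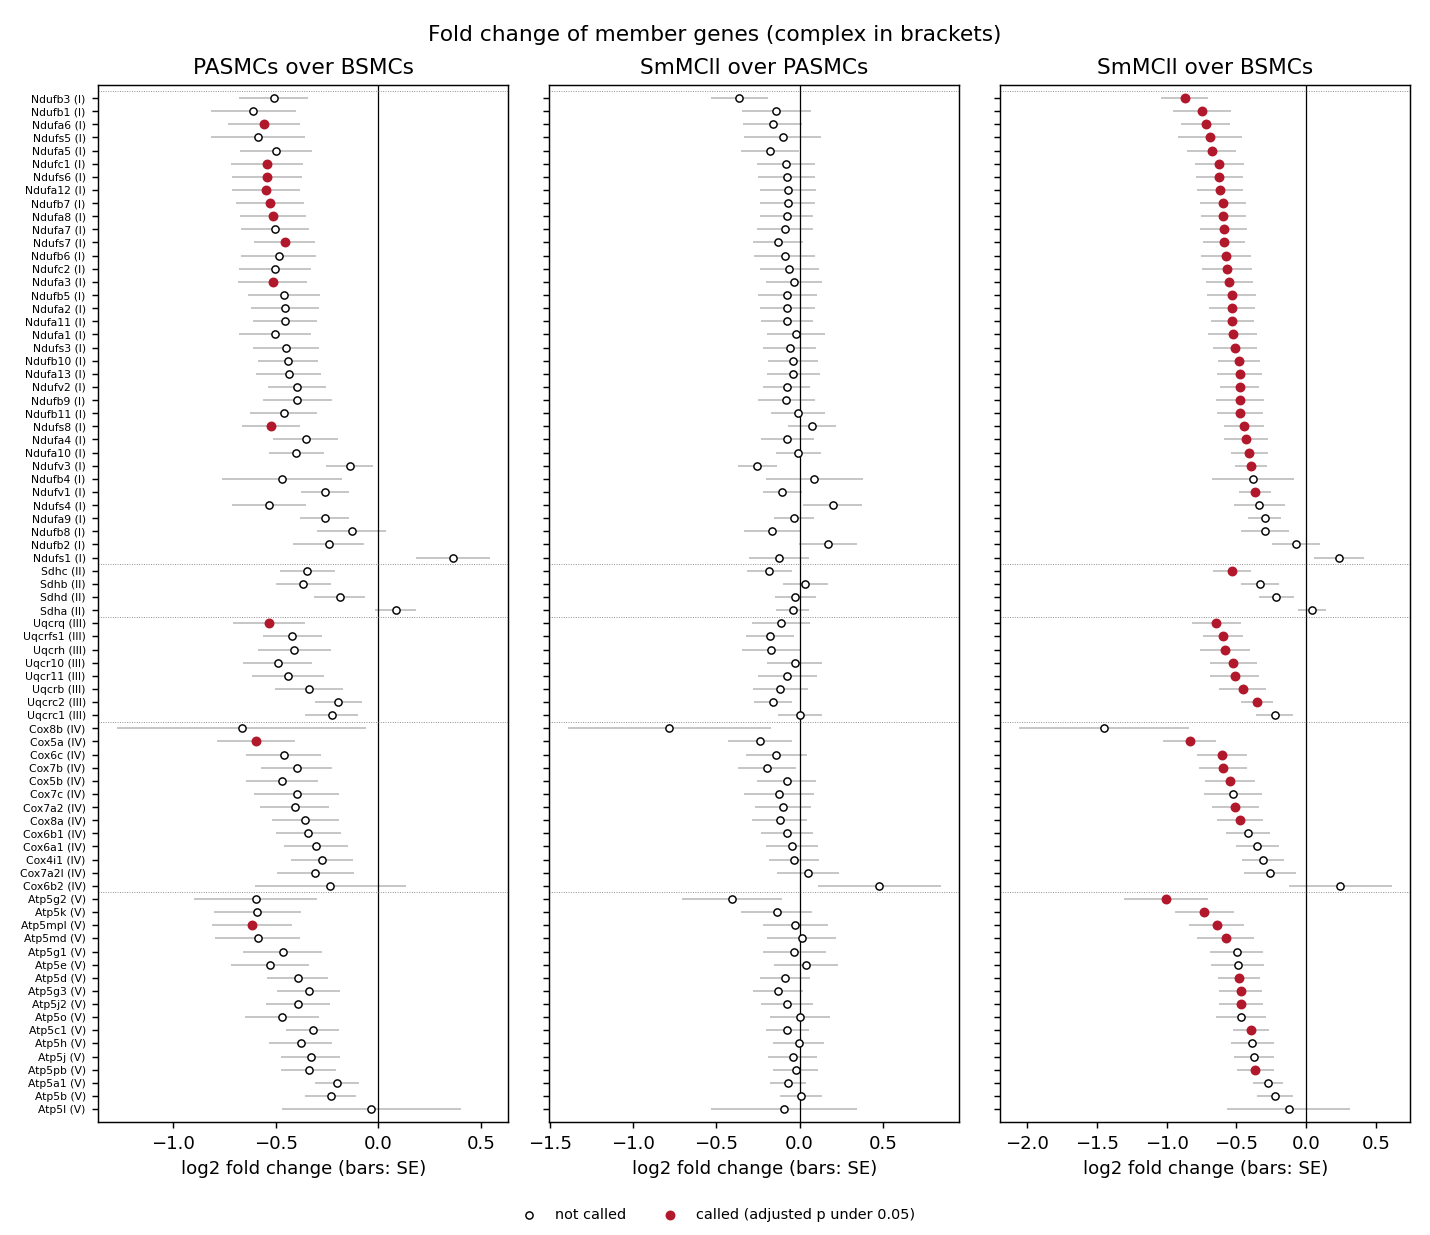
Log2 fold change of the members shown by name (points; bars are the SE of the limma fit) in PASMCs over BSMCs, SmMCll over PASMCs and SmMCll over BSMCs, ordered by complex and then by the last comparison. Filled points are called at an adjusted p under 0.05: 12 in the left panel, 0 in the middle and 53 in the right, all of them below 0.

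Subunit c of ATP synthase is made from 3 genes that encode the same mature protein, and all 3 had log2 fold changes below 0 in SmMCll over BSMCs, Atp5g2 with the value given above. Atp5g3 had 928, 954 and 967 in SmMCll, against 1420, 1043 and 1534 in BSMCs (-0.47 ± 0.15, adjusted p = 0.0284 in limma). It kept this call in 13 of 21 alternatives. Atp5g1 had 368, 305 and 337 in SmMCll, against 524, 364 and 559 in BSMCs, with overlap and no call (-0.50 ± 0.19, adjusted p = 0.0552 in limma). The shares of the complexes in the members' summed values, which a factor common to a library cannot change, were close between groups. Complex I made up 40.7% ± 0.53 in PASMCs, 40.5% ± 0.82 in SmMCll and 42.0% ± 0.46 in BSMCs (SD, n = 3 each). Complex II made up 12.7% ± 0.57 in PASMCs, 12.8% ± 0.36 in SmMCll and 11.2% ± 0.88 in BSMCs. In complex I every BSMCs library lay above all libraries of the other groups. In complex II the PASMCs and BSMCs libraries overlapped, and every SmMCll library lay above every BSMCs library. Complex V made up 25.6% ± 0.39 in PASMCs, 26.0% ± 0.70 in SmMCll and 25.5% ± 0.54 in BSMCs, with overlap.

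The size of the bronchial difference depended on which BSMCs library was read. BSMCs replicate 2 had the lowest value of its group in 76 of 79 members, and replicate 3 the highest in 65. Shares over all genes are not given here for these counts. On the deposited values replicate 2 lay above every PASMCs library in 30 members, inside the PASMCs range in 47 and below it in 2, where 31.8% of all genes tested had it above. It lay above every SmMCll library in 63 members, where 36.8% of all genes did. Without BSMCs replicate 2, 66 members were called lower in PASMCs, where 17.5% of all genes were. With quantile normalization, cyclic loess normalization or equal library totals, 45, 42 and 44 members were called lower, where 13.2%, 13.0% and 13.4% of all genes were. In SmMCll over BSMCs the count of 53 became 70 without BSMCs replicate 2, where 22.5% of all genes were called lower. It became 23, 17 and 11 without SmMCll replicates 1, 2 and 3, where 13.8%, 13.4% and 11.5% of all genes were. Without BSMCs replicate 1 it was 16, and without BSMCs replicate 3 it was 15, where 12.2% and 12.6% of all genes were. In PASMCs over BSMCs 0 members were called lower without BSMCs replicate 1 or 3, where 3.23% and 3.97% of all genes were. The count was also 0 without PASMCs replicate 1 or 2, where 4.60% and 4.99% of all genes were called lower, and 10 without PASMCs replicate 3, where 7.20% were. Without SmMCll replicates 1, 2 and 3 it was 2, 2 and 1, where 7.04%, 7.10% and 6.48% of all genes were. With BSMCs replicate 2 as the only BSMCs library, an alternative added after the data were seen, the median log2 fold change was -0.12 in PASMCs over BSMCs with 0 members called, where 1.94% of all genes were called lower. It was -0.18 in SmMCll over BSMCs with Ndufb3 called lower and Cox6b2 higher, where 7.71% of all genes were called lower. In that fit BSMCs replicate 2 was assumed to vary like the other groups.

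The spread among the BSMCs libraries went with implied depth in these genes. BSMCs replicate 2 had 1.46 times the implied depth of replicate 3, and the other genes tested had a median of 1.43 times as many implied reads in it. The members had 0.992 times as many. Other genes with main transcripts under 800 bases had 0.968 times as many, and those of 800 to 1200 bases 1.02 times. Atp5b had 3315, 3327 and 3284 implied reads in PASMCs, 3282, 3215 and 3173 in SmMCll and 3337, 3354 and 3246 in BSMCs. Its highest library held 1.06 times the reads of its lowest, while implied depth differed 1.57-fold between libraries. Over the members the median of that ratio was 1.46, against 3.00 over the other genes. It was under 1.2 in 5 members, Atp5b, Atp5a1, Cox4i1, Cox6a1 and Sdhd, against 1.12% of the other genes. Within BSMCs the median variance of a member's implied reads between the 3 libraries was 1.79 times its mean, against 13.4 times over the other genes. Within PASMCs these ratios were 2.03 and 5.64, and within SmMCll 5.08 and 5.25.

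**Figure D3:**
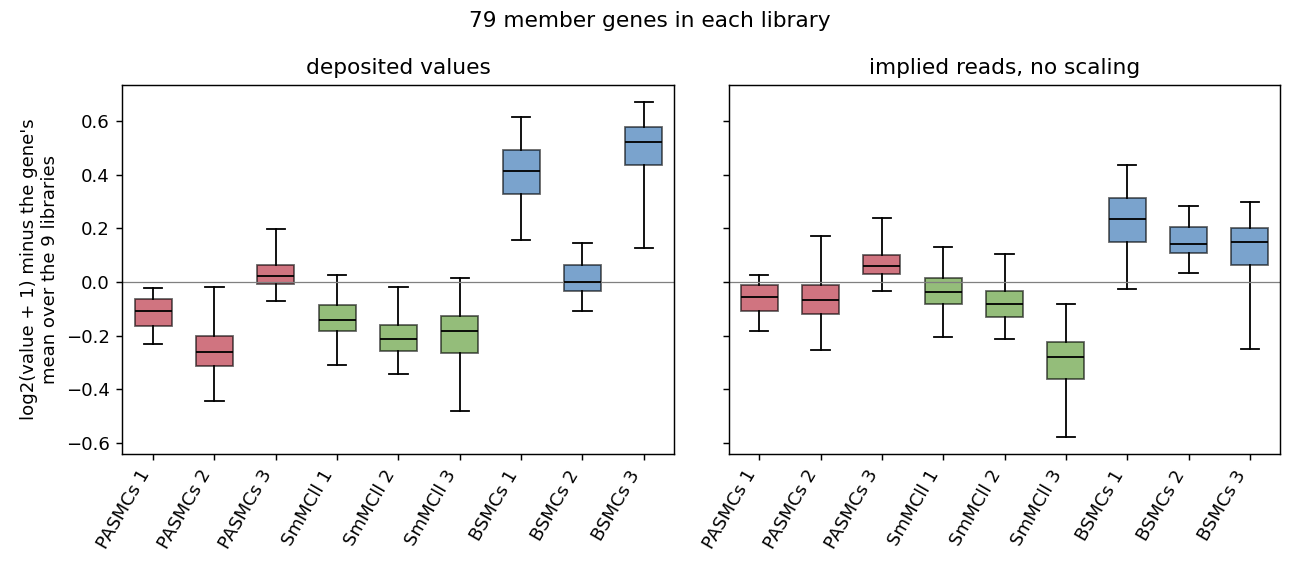
Log2(value + 1) of the 79 tested members in each library, each gene centred on its mean over the 9 libraries, for deposited values (left) and for implied reads (right); boxes are quartiles with the median and whiskers the 5th and 95th percentiles. On deposited values BSMCs replicates 1 and 3 stand above BSMCs replicate 2, and on implied reads the 3 BSMCs libraries lie close together.

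On implied reads with no scaling for depth, the members' medians were below 0 over BSMCs, and few members or none were called. The median log2 fold change of the members was -0.21 in PASMCs over BSMCs, against 0.27 over all genes tested, and -0.30 in SmMCll over BSMCs, against 0.22. Relative to all genes the members stood at -0.48 and -0.52, against -0.49 and -0.53 on the deposited values. All PASMCs libraries had fewer implied reads than all BSMCs libraries in 52 of 79 members, against 12.2% of all genes tested, and all SmMCll libraries had fewer in 59, against 17.8%. The test called 0 members lower in PASMCs over BSMCs on this scale, where 4.41% of all genes were called lower. It called 9 lower in SmMCll over BSMCs, Cox5a, Ndufa5, Ndufa6, Ndufa7, Ndufa8, Ndufb3, Ndufb7, Ndufs7 and Uqcrq, where 9.93% of all genes were called lower, which is near the members' own share. Ndufb3 had 392, 469 and 344 implied reads in SmMCll, against 688, 634 and 608 in BSMCs. Summed over the members, implied reads came to 65303 ± 1788 in PASMCs, 60414 ± 4315 in SmMCll and 69958 ± 3014 in BSMCs (SD, n = 3 each). The sums of deposited values were 60411 ± 3940 in PASMCs, 57671 ± 2011 in SmMCll and 76396 ± 10760 in BSMCs.

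The members are short and densely read transcripts, and below 2000 bases other genes of the same length had similar medians. Their main transcripts had a median of 809 bases, against 2785 bases over the other genes tested, and a median of 0.857 implied reads per base, against 0.0953. Of 640 genes with at least 1 read per base, 32 were members. Under 800 bases the median log2 fold change in PASMCs over BSMCs was -0.46 over 39 members and -0.53 over 824 other genes. From 800 to 1200 bases it was -0.46 over 19 members and -0.45 over 1073 other genes. From 1200 to 2000 bases it was -0.26 over 14 members and -0.25 over 2913 other genes. At 2000 bases and more it was -0.24 over 7 members and 0.26 over 10478 other genes. In SmMCll over BSMCs the members and the other genes stood at -0.53 and -0.63 under 800 bases and at -0.27 and 0.31 at 2000 bases and more. In every class of implied reads per base the members lay further below 0 than other genes. From 0.5 to 1 read per base the median in PASMCs over BSMCs was -0.42 over 31 members and -0.14 over 1484 other genes. At 1 read per base and more it was -0.40 over 32 members and -0.20 over 608 other genes. In SmMCll over BSMCs these medians were -0.51 and -0.15, then -0.48 and -0.19. The part of depth, read density and transcript length in the difference was not tested.

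Shares of calls in the shortest length class were set beside the medians. Under 800 bases 17.9% of members and 22.2% of other genes were called lower in PASMCs over BSMCs. In SmMCll over BSMCs those shares were 74.4% of members and 37.9% of other genes. On implied reads, every PASMCs library lay below every BSMCs library in 79.5% of members under 800 bases and in 37.5% of other genes of that length. For SmMCll and BSMCs the shares were 92.3% and 47.6%. These shares describe 39 members and 824 other genes, which were not matched on level, and carry no test.

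**Figure D4:**
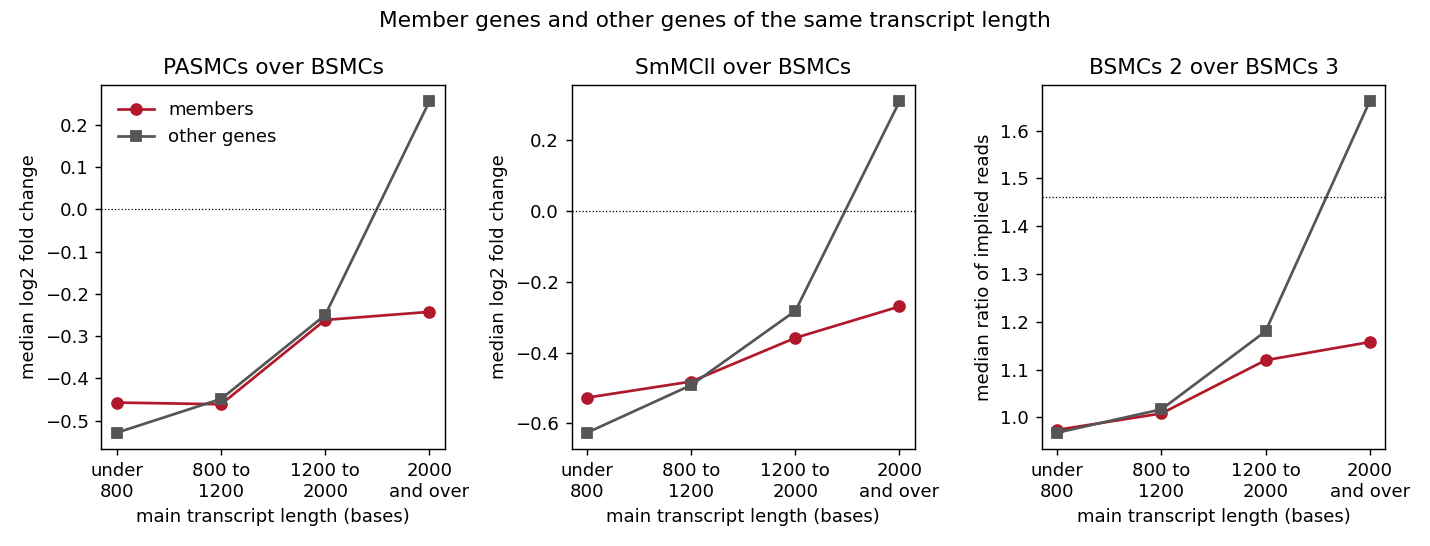
Median log2 fold change by main transcript length for the members and for other genes tested in PASMCs over BSMCs (left) and SmMCll over BSMCs (middle). The right panel shows the median ratio of implied reads in BSMCs replicate 2 over replicate 3. Its dotted line is the ratio of the implied depths, 1.46. Members and other genes follow each other below 2000 bases and part above it, where 7 members are counted.

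Markers of other cell types were also called in these comparisons. Over all genes tested 8.88% were called lower and 13.2% higher in PASMCs over BSMCs. In SmMCll over BSMCs it was 18.2% lower and 23.7% higher. Of 8 leukocyte markers 7 were called lower in PASMCs over BSMCs and 8 in SmMCll over BSMCs, with the sums given above. Their median log2 fold change was -7.93 in PASMCs over BSMCs, with a range of -9.20 to -0.45. In SmMCll over BSMCs it was -3.52, with a range of -7.67 to -0.54. Of 5 erythroid markers 5 were called lower in PASMCs and 4 in SmMCll, with sums of 7 to 20 in PASMCs, 83 to 153 in SmMCll and 292 to 674 in BSMCs. Of 5 pericyte markers 4 were called higher in PASMCs over BSMCs, and 3 higher and 2 lower in SmMCll over BSMCs. Their sums were 12649 to 14271 in PASMCs, 13106 to 14310 in SmMCll and 6540 to 8426 in BSMCs. The pericyte list includes Cspg4, a gene named in the genotype from which PASMCs were taken. Of 8 smooth muscle markers 0 were called in PASMCs over BSMCs and 6 were lower in SmMCll over BSMCs, with a median log2 fold change of -0.37. Of 4 mesothelial markers 3 were called lower in PASMCs over BSMCs and 3 higher in SmMCll over BSMCs, with sums of 32 to 90 in PASMCs, 4326 to 4983 in SmMCll and 248 to 713 in BSMCs. Endothelial markers, 6 in all, had 2 called lower in PASMCs and 2 higher in SmMCll, each over BSMCs. Of 6 fibroblast markers 2 were higher in both comparisons. Of 8 epithelial markers 3 were higher and 2 lower in PASMCs, and 1 was higher and 4 lower in SmMCll. Their part in the members' difference was not tested. In these sorted pools, fewer cells of a type and less RNA per cell cannot be told apart.

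Of the 4 tissue isoforms that the rule left out, 2 were called lower in PASMCs over BSMCs, 1 in SmMCll over PASMCs and 3 in SmMCll over BSMCs. Over all genes tested 8.88%, 6.83% and 18.2% were called lower in these comparisons. Cox4i2, the lung isoform of subunit IV, is known in mouse for its part in acute oxygen sensing by pulmonary arterial smooth muscle. Its values were 250, 266 and 269 in PASMCs, 183, 224 and 175 in SmMCll and 874, 552 and 1144 in BSMCs. Every BSMCs library was above all others, with log2 fold changes of -1.65 ± 0.24 in PASMCs over BSMCs (adjusted p = 0.000591) and -2.08 ± 0.24 in SmMCll over BSMCs (adjusted p = 5.93e-05, limma). The calls held in all 21 alternatives, those without a library included. Its partner Cox4i1 was not called in any comparison, at 1017, 913 and 1078 in PASMCs, 963, 934 and 1043 in SmMCll and 1253, 986 and 1437 in BSMCs. Per length, Cox4i2 made up 21.3% ± 1.6 of the pair in PASMCs, 17.0% ± 2.6 in SmMCll and 41.2% ± 4.3 in BSMCs (SD, n = 3 each). This share does not depend on the library factor. An exact two-sided permutation test gave p = 0.1 for each comparison of the share, the smallest value that 3 against 3 libraries allow.

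Cox6a2, the heart and skeletal muscle isoform of subunit VIa, set the total population apart. It had 4, 5 and 4 in SmMCll, 46, 47 and 83 in PASMCs and 61, 42 and 110 in BSMCs. The SmMCll libraries lay below all others, with log2 fold changes of -3.43 ± 0.44 over PASMCs (adjusted p = 0.000309) and -3.65 ± 0.44 over BSMCs (adjusted p = 8.14e-05, limma), both kept in all 21 alternatives. Striated and cardiac muscle markers moved with it, with sums over 6 genes of 2654 to 3113 in SmMCll, 3985 to 4605 in PASMCs and 4138 to 7023 in BSMCs, and their part was not tested. Its partner Cox6a1 was not called. Per length Cox6a2 made up 0.455% ± 0.084 of the pair in SmMCll, 5.55% ± 1.5 in PASMCs and 5.27% ± 1.6 in BSMCs.

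Ndufa4l2, a hypoxia-induced relative of Ndufa4, had 623, 570 and 554 in PASMCs, 789, 754 and 737 in SmMCll and 1157, 821 and 1566 in BSMCs. The 3 groups did not overlap, and it was called lower in PASMCs over BSMCs (-0.97 ± 0.20, adjusted p = 0.0053) and in SmMCll over BSMCs (-0.59 ± 0.20, adjusted p = 0.0335, limma). The call was lost in 1 of 21 alternatives for PASMCs and in 8 of 21 for SmMCll. Ndufa4, which carries a complex I symbol and is now counted as a subunit of complex IV, had 654, 569 and 703 in PASMCs, 598, 610 and 616 in SmMCll and 863, 669 and 948 in BSMCs. It was called in SmMCll over BSMCs (-0.43 ± 0.16, adjusted p = 0.0465). Cox7a1, the muscle isoform of subunit VIIa, had 10, 14 and 28 in PASMCs, 10, 10 and 6 in SmMCll and 12, 32 and 45 in BSMCs, with no call. Its partner Cox7a2 was called lower in SmMCll over BSMCs (-0.51 ± 0.17, adjusted p = 0.0318), and the related supercomplex factor Cox7a2l was not (-0.26 ± 0.19). Cox6b1 and Cox8a, the common partners of Cox6b2 and Cox8b, stood at -0.41 ± 0.16 without a call and -0.48 ± 0.16 with one (adjusted p = 0.0368, limma). In SmMCll over BSMCs the calls of Ndufa4, Cox7a2 and Cox8a were kept in 9, 13 and 12 of 21 alternatives.

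**Figure D5:**
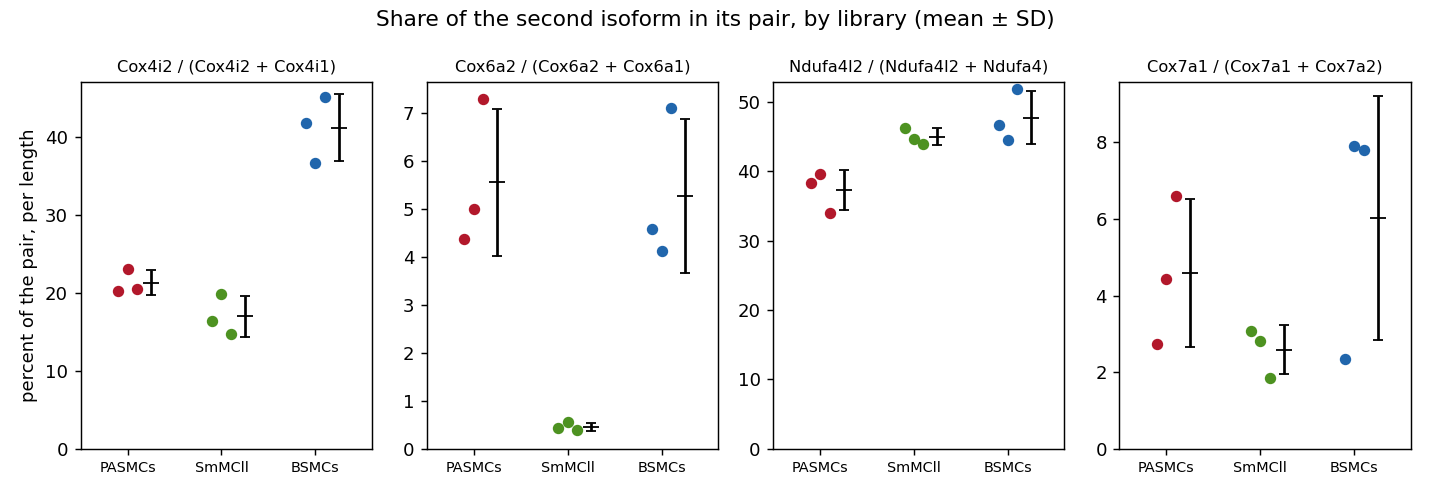
Share of the second isoform in its pair, per length of main transcript, in each library of PASMCs, SmMCll and BSMCs (points), with mean ± SD over the 3 libraries of a group. Cox4i2 lies between 36.7% and 45.2% in BSMCs and under 23.2% in the other libraries, and Cox6a2 lies under 0.55% in SmMCll.

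Calls among the genes that build or feed the chain were counted beside those over all genes tested, of which 8.88% were called lower and 13.2% higher in PASMCs over BSMCs, and 18.2% lower and 23.7% higher in SmMCll over BSMCs. Of 15 complex I assembly factors, 2 were called lower and 0 higher in PASMCs over BSMCs (Ndufaf3 and Ndufaf8), and 3 lower and 1 higher in SmMCll over BSMCs. Ndufaf8 had 269, 241 and 275 in PASMCs, 297, 247 and 241 in SmMCll and 568, 325 and 503 in BSMCs, and the higher gene was Acad9. Of 33 assembly factors of complexes II to V, 9 were lower and 0 higher in PASMCs, and 14 lower and 1 higher in SmMCll, each against BSMCs. The lowest adjusted p among them in PASMCs was that of Cox18, an insertase of complex IV assembly, at -0.94 ± 0.19 (adjusted p = 0.00522, limma). Of 16 citric acid cycle enzymes, 0 were called in PASMCs over BSMCs (4 at an unadjusted p under 0.05, limma) and 5 lower and 1 higher in SmMCll over BSMCs. Fumarase, Fh1, was at 704, 789 and 712 in SmMCll, against 1268, 1064 and 1205 in BSMCs, without overlap (-0.68 ± 0.12, adjusted p = 0.00128 in limma). Of 13 carriers, porins and cristae proteins, 1 was lower in PASMCs, and 4 were lower and 1 higher in SmMCll. On implied reads without scaling 0 genes of these 4 lists were called lower in PASMCs over BSMCs, where 4.41% of all genes were. For SmMCll over BSMCs it was 2 complex I assembly factors, 4 other assembly factors, 2 citric acid cycle enzymes and 0 carriers, where 9.93% of all genes were called lower. Cyc1, the cytochrome c1 subunit of complex III whose symbol lies outside the rule, was at -0.39 ± 0.14 in PASMCs over BSMCs without a call and at -0.57 ± 0.14 in SmMCll over BSMCs (adjusted p = 0.0069, limma). In SmMCll over PASMCs limma called 0 genes of these lists, where 16.2% of all genes tested were called in either direction. At an unadjusted p under 0.05 there were 0 complex I assembly factors, 2 other assembly factors, 3 citric acid cycle enzymes and 2 carriers. Over all genes tested 27.9% passed that threshold in either direction.

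Ribosomal proteins had similar medians. Of 77 mitochondrial ribosomal proteins tested, 31 were called lower in PASMCs and 44 in SmMCll, each against BSMCs, with medians of -0.51 in both. Of 76 cytosolic ribosomal proteins tested, 8 and 30 were called lower, with medians of -0.45 in PASMCs over BSMCs and -0.53 in SmMCll over BSMCs. None of either list was called higher in these 2 comparisons. Over all genes tested 8.88% were called lower in PASMCs over BSMCs and 18.2% in SmMCll over BSMCs. On implied reads without scaling, 0 and 13 of the mitochondrial list and 1 and 4 of the cytosolic list were called lower in PASMCs and in SmMCll, where 4.41% and 9.93% of all genes were.

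Few regulators of mitochondrial genes were called, at shares near those over all genes tested. Of 14 measured regulators, 2 were called higher and 0 lower in PASMCs over BSMCs, and 4 higher and 2 lower in SmMCll over BSMCs. Over all genes tested 13.2% were called higher and 8.88% lower in PASMCs over BSMCs, and 23.7% higher and 18.2% lower in SmMCll over BSMCs. Pprc1, a PGC-1-related coactivator that acts with NRF1, had 798, 1205 and 693 in PASMCs, 1123, 745 and 816 in SmMCll and 186, 465 and 510 in BSMCs. The BSMCs libraries lay below all others (1.30 ± 0.35, adjusted p = 0.0211 for PASMCs and 1.31 ± 0.35, adjusted p = 0.0109 for SmMCll, limma). Nfe2l1, a stress-responsive bZIP factor and a different gene from Nrf1, is in the list and enters both counts of higher calls. It was higher in PASMCs over BSMCs (1.04 ± 0.18, adjusted p = 0.00161) and in SmMCll over BSMCs (1.02 ± 0.18, adjusted p = 0.000898, limma). Gabpa and Gabpb2, subunits of the ETS factor GABP, were called higher in SmMCll over BSMCs, at 0.95 ± 0.29 and 0.78 ± 0.20. Ppargc1b, the coactivator PGC-1 beta, had 33, 40 and 60 in SmMCll, 136, 110 and 133 in PASMCs and 89, 107 and 91 in BSMCs. It was lower in SmMCll than in both, at -1.53 ± 0.28 over PASMCs (adjusted p = 0.00278) and -1.13 ± 0.28 over BSMCs (adjusted p = 0.0077, limma). Esrra, an estrogen-related receptor, was called lower in SmMCll over BSMCs (-0.68 ± 0.21, adjusted p = 0.0215). Nrf1, Gabpb1, Tfam, Tfb2m, Polrmt, Yy1, Ppargc1a and Esrrg were called in no comparison. Nrf1 itself had 839, 833 and 718 in PASMCs, 925, 654 and 782 in SmMCll and 598, 855 and 741 in BSMCs.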

How the data were processed

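RNA of 9 sorted lung samples, with at most 10 ng of RNA each, was made into SMART-Seq v4 libraries, per the labels' protocols. Per the submitters' processing notes the build was mm39, and the tools were DESeq2 1.36.0, featureCounts 2.0.4, STAR 2.7.11a, Trimmomatic 0.39 and Picard 3.1.1. The deposited values are whole numbers on a normalized scale, so they were handled as a score and not as counts, and no count test was run. Reading from the values themselves, each deposited score is a read number times a library factor, rounded. The factor was recovered from the whole numbers that are missing or doubled in a library, and a value divided by it gives implied reads. On simulated reads the largest error of a recovered factor was 0.000294%. Implied depth ranged from 6.39 to 10.02 M reads per library.

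The test took genes whose value reached 10 in 3 or more libraries, on log2(value + 1) with limma 3.58.1 (R 4.3.3; lmFit, then eBayes with trend and robust), in 1 fit of 3 group means over 9 libraries. Benjamini-Hochberg adjustment ran over all 15647 genes tested, with calls under 0.05. Fold changes on this scale understate the change of low genes. The fit was tested on simulated data. Tables were made with Python 3.11.15, numpy 2.4.6 and pandas 2.3.3. Length is that of the main transcript of each gene in the reference annotation, used in place of exon length, with a value for all 80 members and 96.7% of genes. Values in each library were to be given for the leading pair of each complex per kb and for called members with the largest fold changes and no overlap. The extremes of each comparison and isoform sets were also included. For some of these genes only the compared groups or a fold change alone are shown. Of the members that enter the counts, 1 is not reported here by name. Motifs were searched as exact letters, after longer forms of the NRF1 and YY1 letters had been tried. Other genes named were chosen after their values were seen. The members, gene lists and tests were chosen with earlier results of these data known. Alternatives changed the pseudocount, the filter, the normalization, library weights, the samples in the fit and the replicate block, and left out each library in turn.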

Additional observations from a re-analysis of the deposited data

How the results depend on the processing

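In PASMCs over BSMCs the 12 members called lower became 5 with no filter, 45 with quantile normalization, 42 with cyclic loess normalization, 46 with array weights, 0 on implied reads without scaling and 0 with only the 2 groups compared in the fit. Leaving out 1 library gave 0 to 66 called lower and 0 to 1 called higher. In SmMCll over BSMCs the 53 called lower became 9 on implied reads without scaling and 27 with only the 2 groups compared, and leaving out 1 library gave 11 to 70 called lower and 0 to 1 called higher. In SmMCll over PASMCs array weights called 1 lower. Alternatives chosen after seeing the data gave 44 called lower in PASMCs over BSMCs with implied reads scaled to equal library totals. Without both shallower BSMCs libraries they gave 0 called lower and a median of -0.12 in PASMCs over BSMCs, and 1 lower, 1 higher and a median of -0.18 in SmMCll over BSMCs. For no filter, array weights, fits of only the 2 groups and the replicate block, shares over all genes are not given here. Those counts therefore cannot be set against calls over the whole table. The cause of these changes was not tested. The medians kept their sign in every alternative run. Leaving out 1 library, they ran from -0.60 to -0.32 in PASMCs over BSMCs and from -0.65 to -0.37 in SmMCll over BSMCs. Deviations from the group means correlated at -0.124 to 0.136 between same-numbered libraries and at -0.190 to 0.140 between others. With 3 libraries in a group, these values cannot tell whether the numbers pair the samples. A replicate block gave 15, 0 and 55 called lower in PASMCs over BSMCs, SmMCll over PASMCs and SmMCll over BSMCs. Over 105 single-gene results, 2196 alternative values held 1921 with an unchanged call, 168 that lost and 107 that gained one, and 0 that reversed.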

Other observations

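Of 5 pseudogene rows with symbols of the same families, 3 passed the filter, and those named here were chosen after their values were seen. Ndufa12-ps had values of 1, 3 and 1 in SmMCll, 79, 76 and 92 in PASMCs and 104, 32 and 59 in BSMCs. Every SmMCll library lay below all others, with log2 fold changes of -5.04 over PASMCs (adjusted p = 5.5e-05) and -4.56 over BSMCs (adjusted p = 4.1e-05, limma). Ndufs5-ps had 15, 49 and 28 in PASMCs, 5, 5 and 1 in SmMCll and 3, 3 and 3 in BSMCs. Every PASMCs library lay above all others, with a log2 fold change of 2.83 over BSMCs (adjusted p = 0.0103, limma). Reads can be shared between a pseudogene and its parent gene, so these values are uncertain.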
